A study of Mus musculus with 15 samples.

Results

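The variable (V) segments of the immunoglobulin genes were taken as every gene whose symbol begins with Ighv, Igkv or Iglv and whose expression was above 0 in at least 1 of 15 mouse ceca. This gave 189 of the 344 V segments in the table, among 24279 genes above 0. There were 92 of 183 heavy chain segments (Ighv, chromosome 12), 94 of 158 kappa light chain segments (Igkv, chromosome 6) and all 3 lambda light chain segments (Iglv, chromosome 16). The other 155 were at 0 in every mouse. At the edge of the rule, 28 segments had 1 read in all 15 mice together, with a mean FPKM of 0.00739 to 0.0391, against 0 for those outside it.

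The ceca came from wild-type C57BL/6 mice, aged 20 weeks according to the labels, and were emptied before RNA was extracted. Mice were gavaged 2 times a day for 30 days, 7 with ampicillin, vancomycin, neomycin, metronidazole and amphotericin B (antibiotic-induced microbiome depletion, AIMD) and 8 with water (vehicle). FPKM express the reads of a gene relative to its length and to a measure of the size of its library. The question here was how antibody V segments differed between the groups in level, number and evenness.

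A B cell joins 1 V segment to a joining (J) segment, with a diversity segment between them in the heavy chain, ahead of the constant region. Descendants of that cell carry the same V segment, which many unrelated B cells also use, while the constant region marks the antibody class. Plasma cells, which secrete antibody and in the gut mostly make IgA, hold far more of this RNA per cell than other B cells. A cecum holds these cells in the lamina propria and in the lymphoid follicles of the cecal patch. In RNA from whole tissue, fewer cells of a type and less RNA per cell cannot be told apart.

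The lambda segments Iglv1 and Iglv2 are shown because Iglv1 was the segment with the highest mean FPKM and because 50-base reads can fall on stretches that they share. The sequences below are the last 300 bases of their V exons in GENCODE M21 on GRCm38, both from the minus strand and written 5′ to 3′, at chr16:19085017-19085316 for Iglv1 and chr16:19260401-19260700 for Iglv2. Capitals mark the bases that differ.
Iglv1: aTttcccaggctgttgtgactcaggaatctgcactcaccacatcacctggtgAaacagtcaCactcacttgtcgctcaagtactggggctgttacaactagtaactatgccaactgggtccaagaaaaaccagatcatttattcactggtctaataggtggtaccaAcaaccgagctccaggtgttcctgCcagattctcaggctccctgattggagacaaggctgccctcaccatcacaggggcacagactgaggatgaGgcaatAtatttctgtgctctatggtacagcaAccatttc
Iglv2: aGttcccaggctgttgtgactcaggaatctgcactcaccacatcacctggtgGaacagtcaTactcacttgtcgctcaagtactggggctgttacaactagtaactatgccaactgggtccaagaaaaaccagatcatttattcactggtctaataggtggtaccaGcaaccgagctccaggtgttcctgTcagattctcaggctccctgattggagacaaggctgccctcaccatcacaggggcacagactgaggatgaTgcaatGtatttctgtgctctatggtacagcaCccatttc
Without a gap, 8 of the 300 bases differed, an identity of 97.3%. Of the 50-base windows of Iglv1, 22.2% also occurred in another gene's transcript, mostly that of Iglv2. Iglv3 had no such window.

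Further segments are shown by the last 60 bases of the V exon, where the third complementarity-determining region (CDR3), the most variable part of an antibody, begins. Capitals mark the last codons of the framework, a tyrosine codon, a tyrosine or phenylalanine codon and the cysteine codon that precedes CDR3. These were searched for on the coding strand and were found in the last 60 bases of 170 of 175 members with an annotated coding end (97.1%). The segments are among those whose reads were the most unequal between mice or groups, together with Igkv10-96, which was detected in all 15 mice.
Ighv4-1 (chr12:113948282-113948341, minus strand): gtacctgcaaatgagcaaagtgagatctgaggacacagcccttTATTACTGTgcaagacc
Ighv1-53 (chr12:115158403-115158462, minus strand): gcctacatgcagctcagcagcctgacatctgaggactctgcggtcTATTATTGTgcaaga
Igkv5-43 (chr6:69823355-69823414, minus strand): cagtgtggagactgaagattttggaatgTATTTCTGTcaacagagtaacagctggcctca
Igkv12-89 (chr6:68834846-68834905, minus strand): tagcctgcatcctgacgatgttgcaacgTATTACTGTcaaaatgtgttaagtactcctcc
Igkv10-96 (chr6:68631963-68632022, minus strand): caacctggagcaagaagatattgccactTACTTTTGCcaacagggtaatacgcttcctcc
Among these, Igkv12-89 shared no 50-base window with another gene's transcript. The share was 57.6% for Ighv1-53 (mostly with Ighv1-69), 51.2% for Igkv5-43 (mostly with Igkv5-45), 32.6% for Igkv10-96 (mostly with Igkv10-94) and 29.9% for Ighv4-1 (mostly with Ighv4-2). Over all members the median share was 21.3%, with 32 members at 0 and 24 above 50%. How reads that fit several segments were counted is not given in the sources used here, so that values of near-identical segments are uncertain.

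Libraries held 8679678 to 18108585 reads on genes in AIMD mice and 4372420 to 14405947 in vehicle mice. The share of these reads on mitochondrial genes was 6.43% ± 2.27 (SD) in the 7 AIMD mice and 16.8% ± 6.89 (SD) in the 8 vehicle mice, with ranges of 4.28% to 10.9% and 6.92% to 26.2%. Across all genes, 36% of the 11971 tested passed a limma adjusted p of 0.05, with 19.4% of tested genes higher and 16.6% lower in AIMD mice. A clock score (the mean log2 level of Arntl, Npas2 and Clock minus that of 7 genes of the opposite phase, such as Per2 and Dbp) split both groups into mice above 1 (AIMD mice 1 to 3 and vehicle mice 1 to 4) and mice below it, and the time of sacrifice of each mouse is not in the labels.

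Summed V segment FPKM was higher in AIMD mice. The lowest, median and highest values were 48.0, 158 and 357 in AIMD mice and 18.0, 34.9 and 64.9 in vehicle mice. Every AIMD mouse except replicate 3 was above every vehicle mouse. The means were 169.8 ± 97.9 (SD, n = 7) and 40.9 ± 17.8 (SD, n = 8), a ratio of 4.15, and the difference of the mean log2 sums was 1.96 (SE 0.41). These are sums over members and carry no test. V segments held 5693 reads in the 7 AIMD mice and 981 in the 8 vehicle mice. Per mouse these were 338 to 1791 and 49 to 258, without overlap, but such counts are not scaled to depth. Scaled to the reads on genes of each library, the groups overlapped, with 6 of 7 AIMD mice above all vehicle mice. AIMD mouse 3 had 338 V reads in the deepest library (18108585 reads), a lower share than the 258 of 9614596 in vehicle mouse 4. Among mice with a clock score above 1, the sums were 48.0 to 158 in AIMD mice and 18.0 to 64.9 in vehicle mice, which overlap. Among mice below it, the sums were 146 to 357 and 28.4 to 55.6, which do not.

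**Figure D1:**
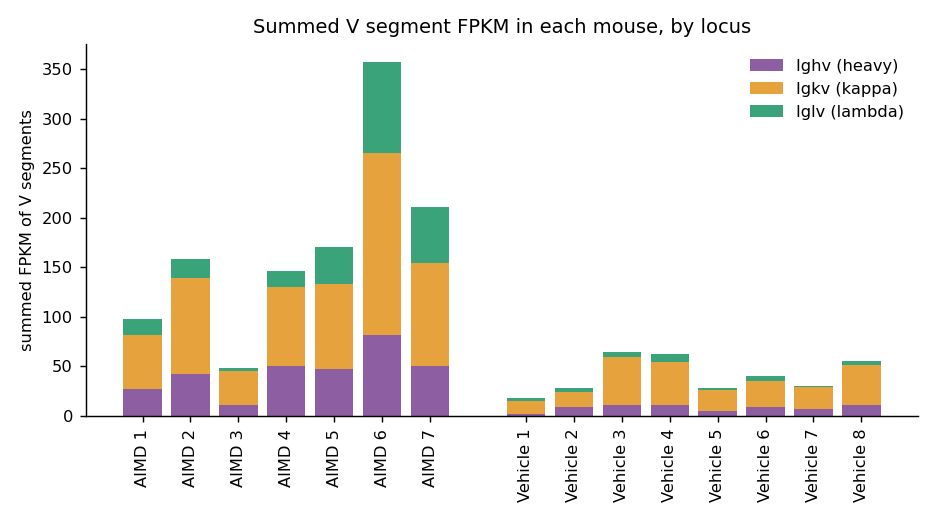
Summed FPKM of V segments in each mouse (bars), split by locus (colors), for 7 AIMD and 8 vehicle mice. Bars of AIMD mice reach 48.0 to 357 and those of vehicle mice 18.0 to 64.9, and AIMD mouse 3 lies within the range of the vehicle mice.

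Heavy chain segments, which together with diversity and J segments encode the variable domain of the heavy chain, summed to 11.4, 47.7 and 81.2 FPKM (lowest, median and highest) in AIMD mice. In vehicle mice the sums were 1.79, 8.89 and 11.5. Again 6 of 7 AIMD mice were above all vehicle mice, AIMD mouse 3 overlapping, with a ratio of the means of 5.57 (log2 difference 2.47, SE 0.47). The largest family, Ighv1, had 48 of 92 segments above 0 and summed to 15.9 FPKM in AIMD mice (6.65 to 27.6) and 3.13 in vehicle mice (0.705 to 4.65), with no overlap. All 4 segments of the Ighv14 family were detected in AIMD mice, at a summed FPKM of 0.150 to 1.06, and none had a read in a vehicle mouse. They rest on few reads, 15 for Ighv14-2 and 1 or 2 for each of the others over all mice. Ighv8 stood at 0.999 and 0.736 FPKM, with no AIMD mouse above all vehicle mice, and vehicle mouse 8 alone set that ratio, which was 1.36 with it and 4.93 without it.

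Kappa segments, used by most mouse antibodies, summed to 34.0, 85.5 and 184 FPKM in AIMD mice and 13, 24.7 and 47.5 in vehicle mice. The ratio of the AIMD mean to the vehicle mean was 3.16 (log2 difference 1.64, SE 0.38). The kappa share of the V sum was 56.1% ± 7.62 (SD) in the 7 AIMD mice and 70.1% ± 7.17 (SD) in the 8 vehicle mice, and the groups overlapped. Igkv1, Igkv4, Igkv6 and Igkv8 were 3.17 to 4.41 times as high in AIMD mice in mean summed FPKM. Igkv16 and Igkv17 stood at 1.32 and 0.980 times, with no AIMD mouse above all vehicle mice. Without vehicle mouse 8, Igkv17 was 2.02 times as high in AIMD mice.

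Lambda segments, of which the mouse has few, summed to 2.64, 19.7 and 92.0 FPKM in AIMD mice and 0.791, 4.28 and 7.93 in vehicle mice. The ratio of the means was 8.29 (log2 difference 2.68, SE 0.73), with 6 of 7 AIMD mice above all vehicle mice. Iglv1 accounted for 1091 of 1194 lambda V reads in AIMD mice and for 61 of 111 in vehicle mice. The lambda share of the V sum was 17.1% ± 8.05 (SD, n = 7) and 10.4% ± 4.64 (SD, n = 8), with overlapping groups. Pseudogenes contributed little: 14 of 127 V pseudogenes were above 0, with 36 reads or 0.539% of V reads, against 175 of 217 V genes.

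More V segments were detected in AIMD mice. The lowest, median and highest numbers with FPKM above 0 were 76, 110 and 116 in AIMD mice and 26, 45 and 77 in vehicle mice. The means were 102.6 ± 14.3 (SD, n = 7) and 49.2 ± 17.3 (SD, n = 8), a difference of 53.3 (SE 8.15), with AIMD mouse 3 overlapping. For heavy chain segments the groups did not overlap, at 26 to 47 in AIMD mice and 4 to 24 in vehicle mice. Kappa segments numbered 47 to 66 and 20 to 53. Segments seen in AIMD mice alone numbered 60, segments seen in vehicle mice alone 9, and 120 were seen in both. Of the 60, only 3 had 20 or more reads. AIMD libraries also held more reads in all (86861749 against 67853912), and the like shares over all genes were not counted.

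Detection depended on the number of V reads. When all libraries were thinned to the lowest total, 4372420 reads, the expected numbers were 71.0 ± 16.9 (SD) in the 7 AIMD mice and 34.6 ± 11.8 (SD) in the 8 vehicle mice. When V reads were thinned to 49 in each mouse, the number in the poorest library, they were 27.2 ± 3.48 and 30.3 ± 2.65, and the difference turned to -3.06 (SE 1.61) with overlapping groups. At an equal number of V reads, a larger number of segments was not detectable in AIMD mice at this depth.

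Evenness says how equally the V sum is spread over the segments detected in a mouse (Pielou's measure, 1 where all are equal). It was 0.689, 0.833 and 0.883 (lowest, median and highest) in AIMD mice and 0.902, 0.926 and 0.964 in vehicle mice. The groups did not overlap, also among mice on each side of the clock score. The means were 0.804 ± 0.0717 (SD, n = 7) and 0.928 ± 0.0240 (SD, n = 8), a difference of -0.125 (SE 0.028). Evenness is high by construction where most segments have a single read, and a mean of 25.1 of the 49.2 segments of a vehicle mouse had 1 read, against 31.4 of 102.6 in AIMD mice. The inverse of the unbiased Simpson concentration of reads, a number of equally common segments whose concentration does not depend on the number of reads on average, was 22.1 ± 10.4 (SD) in the 7 AIMD mice and 39.3 ± 10.3 (SD) in the 8 vehicle mice, with overlapping ranges of 9.91 to 37.4 and 26.1 to 55.0. Without the lambda segments these were 30.2 ± 10.8 and 39.7 ± 8.96. The effective number of segments by Shannon entropy stood the other way, at 41.9 ± 10.3 and 36.4 ± 9.76. It cannot exceed the number detected, 76 to 116 in AIMD mice and 26 to 77 in vehicle mice, which depended on V reads. The effective number is therefore not comparable between the groups.

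**Figure D2:**
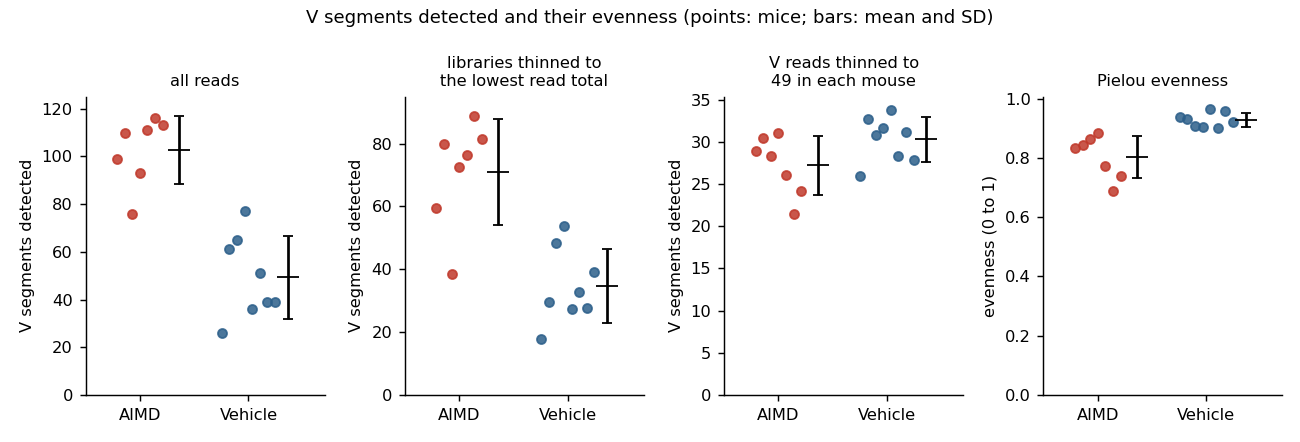
Number of V segments detected with all reads, after thinning libraries to the lowest total and after thinning V reads to 49, and Pielou evenness, for each mouse (points), with the mean and SD of 7 AIMD and 8 vehicle mice (black). The difference in number is 53.3 with all reads and -3.06 at 49 V reads, and evenness is at most 0.883 in AIMD mice and at least 0.902 in vehicle mice.

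A single segment held more of the V sum in AIMD mice. The top segment's share was 8.40%, 16.2% and 24.1% (lowest, median and highest) in AIMD mice and 5.66%, 7.97% and 11.6% in vehicle mice. The groups overlapped, 4 of 7 AIMD mice being above all vehicle mice. Iglv1 was the top segment in 6 AIMD mice, and Igkv10-96 was in AIMD mouse 3. In vehicle mice the top segment was Igkv10-96 in mice 3, 4 and 7, Iglv1 in mice 1 and 6, Iglv2 in mouse 2, Igkv5-48 in mouse 5 and Igkv17-127 in mouse 8. The 10 highest segments of a mouse held 53.5% ± 8.98 (SD, n = 7) and 50.5% ± 7.73 (SD, n = 8) of its sum.

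Below the top segment, AIMD mice differed in which segment was abundant. Igkv5-43 had 255 reads in AIMD mouse 6 (51.2 FPKM) and 0 to 5 reads in each of the other 14 mice. Igkv8-27 had 92 reads in AIMD mouse 7 (22.2 FPKM) and at most 7 elsewhere. Igkv12-89 had 58 reads in AIMD mouse 2 (14.3 FPKM) and 0 to 12 in the other AIMD mice, and Igkv4-53 was highest in AIMD mouse 5 (12.6 FPKM). Of 59 segments with at least 20 reads over the AIMD mice, 12 had over 50% of them in 1 mouse. In vehicle mice 9 segments had as many reads, and 0 of them had over 50% in 1 mouse. Vehicle mice held 981 V reads in all against 5693, so few segments could enter and the counts cannot be compared. Below the 20 reads, Igkv17-127 had 8 of its 14 vehicle reads in vehicle mouse 8.

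**Figure D3:**
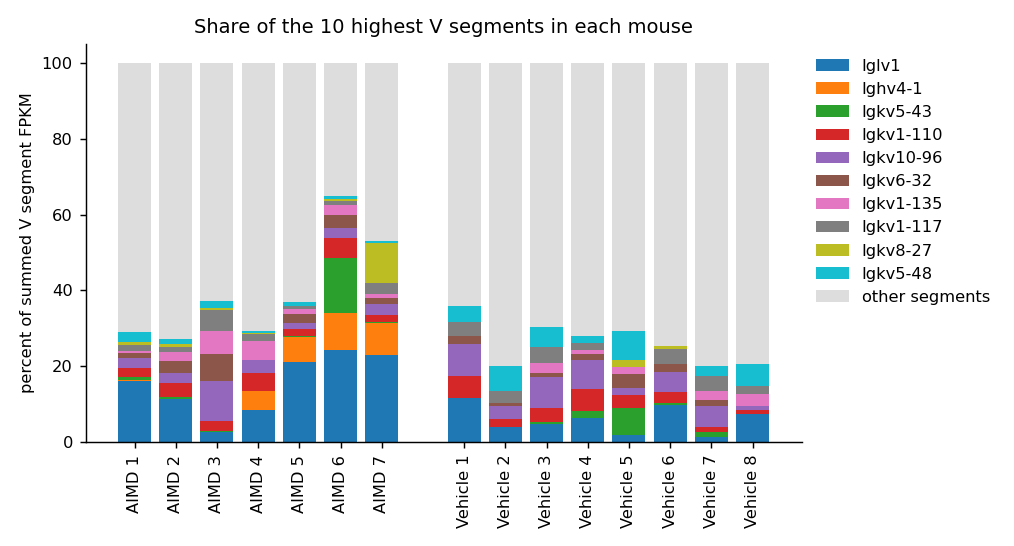
Percent of the summed V segment FPKM of each mouse held by each of the 10 segments with the highest mean FPKM over all mice (colors) and by all other segments (grey). Iglv1 is largest in 6 of 7 AIMD mice, and Igkv5-43 in AIMD mouse 6 and Igkv8-27 in AIMD mouse 7 stand out from the other AIMD mice.

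Single segments were tested with limma on log2(FPKM + 0.5), a scale that understates changes of low values, with p-values adjusted over all 11971 genes. A segment entered if 7 or more mice had 0.5 FPKM or more, which was so for 36 of 189. Since 7 is also the number of AIMD mice, a segment could pass through that group alone, and the count over those that passed says nothing of the rest. Of the 36, 18 had higher and 0 had lower values in AIMD mice at an adjusted p under 0.05, where 19.4% and 16.6% of all tested genes were. Without a filter on low values, limma called 27 of all 189 higher and 0 lower, where 9.9% and 7.47% of all 24279 genes were. With 1 FPKM or more in 7 mice, 11 segments entered and 7 were higher and 0 lower by limma, where 20.3% and 17.2% of tested genes were. Among the 36, none was lower at an unadjusted limma p under 0.05, by an exact rank-sum test or by limma voom on the reads, which each called 12 higher. The rank-sum test called 17.6% of all tested genes higher and 14.8% lower, and voom 19.6% and 17.5%. Mean FPKM was higher in AIMD mice for 166 of the 189 and lower for 23, and the median member had 9 reads over the AIMD mice and 2 over the vehicle mice.

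Iglv1 (chr16:19085017-19085500, minus strand) rose most among the segments tested. Its FPKM in AIMD mice 1 to 7 was 15.8, 17.9, 1.21, 12.3, 36, 86.2 and 48.4, and in vehicle mice it was 0.391, 2.60 and 4.09 (lowest, median and highest). Every AIMD mouse except replicate 3 was above all vehicle mice. The means were 31.1 ± 28.9 (SD, n = 7) and 2.38 ± 1.56 (SD, n = 8). The log2 fold change was 2.99 (SE 0.64, adjusted p = 0.00195 by limma). AIMD mice thus spread from 1.21 to 86.2 FPKM, a wider range than the ratio of 13.1 between the group means.

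The other lambda segments did not pass. Iglv2 stood at 1.47 ± 1.39 (SD, n = 7) and 0.499 ± 0.739 FPKM (SD, n = 8). The log2 fold change was 0.96 (SE 0.40, adjusted p = 0.0682 by limma). Leaving out AIMD mouse 1 or vehicle mouse 2 brought it past the threshold (limma adjusted p = 0.0289 and 0.0133). Iglv3 stood at 1.76 ± 2.21 and 1.26 ± 1.25 FPKM, a log2 fold change of 0.24 (SE 0.46, adjusted p = 0.713 by limma), and without AIMD mouse 7 its mean was 0.949 FPKM in AIMD mice.

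Of the heavy chain segments, Ighv1-53 was the one with reads in all 7 AIMD mice and none in any vehicle mouse, among those tested. AIMD mice 1 to 7 had 5, 8, 7, 3, 9, 24 and 8 reads, or 0.815 to 5.20 FPKM. Taking 3 reads over the vehicle-treated group as the floor that 0 reads allow, it was at least 16.7-fold higher in AIMD mice, a bound that covers counting error only. Its fitted log2 fold change was 2.13 (SE 0.23, adjusted p = 5.83e-06 by limma). With 0 FPKM in every vehicle mouse, Ighv1-53 passed the filter through the 7 AIMD mice alone. This p-value therefore describes the segment and is no independent support for its rise. Over all genes tested, 5.26% were higher in every AIMD mouse than in every vehicle mouse, and over all 24279 genes 2.86% were, beside 3 of the 189 segments.

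Ighv4-1, the heavy chain segment with the highest mean, was not tested because it was below the filter in too many mice. AIMD mice 1 to 7 had 2, 1, 0, 25, 63, 194 and 84 reads, and vehicle mice had none. It reached 35.7 FPKM in AIMD mouse 6, and all 4 AIMD mice with a clock score below 1 were above the other 3. By the same floor, its reads pooled over the AIMD mice and scaled to depth were at least 96.1-fold higher. Without AIMD mouse 6, which held 52.6% of its reads, the bound was 52.3-fold. These bounds cover counting error only and not the spread between AIMD mice, of which mouse 3 had 0 reads. The other heavy chain segments that rose were Ighv6-3, Ighv7-3, Ighv1-26, Ighv3-6 and Ighv1-9, with log2 fold changes of 1.33 to 1.78 (limma adjusted p 0.000529 to 0.0169). Ighv6-3 and Ighv1-9 lost their calls by the exact rank-sum test (adjusted p = 0.0574 and 0.0925) and by limma voom (adjusted p = 0.0617 and 0.0875). Ighv1-26 had 43 reads over the 7 AIMD mice, each of which had some, and 3 in vehicle mouse 4 alone.

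The 11 kappa segments that rose had log2 fold changes of 0.89 to 1.83. Igkv6-32 was at 0.328, 3.45 and 11.7 FPKM (lowest, median and highest) in AIMD mice and at 0, 0.577 and 1.06 in vehicle mice, and 6 AIMD mice were above all of these (log2 fold change 1.83, SE 0.42, adjusted p = 0.00337 by limma). Igkv12-44 had the smallest SD relative to its mean in AIMD mice among the segments that rose, at 0.856 to 2.97 FPKM, with 0 to 0.896 in vehicle mice (log2 fold change 1.28, SE 0.26, adjusted p = 0.00124 by limma). Igkv1-135, Igkv4-53, Igkv1-110, Igkv2-109, Igkv12-89, Igkv10-96 and Igkv1-117 rose by 1.08 to 1.82 on the log2 scale. Igkv6-15 and Igkv9-120 had the least firm calls, with limma adjusted p-values of 0.0427 and 0.0477 that rose above 0.05 when some mice were left out. Igkv12-89 lost its call without AIMD mouse 1 (limma adjusted p = 0.0566).

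Igkv5-48, among the 10 segments with the highest mean FPKM, was at 1.83 ± 0.964 (SD, n = 7) and 1.68 ± 1.19 FPKM (SD, n = 8). The log2 fold change was 0.23 (SE 0.38, adjusted p = 0.665 by limma). Igkv17-127, not tested, was at 5.09 FPKM in vehicle mouse 8 and at most 0.425 in the other vehicle mice, beside 0.147 to 1.21 in AIMD mice.

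**Figure D4:**
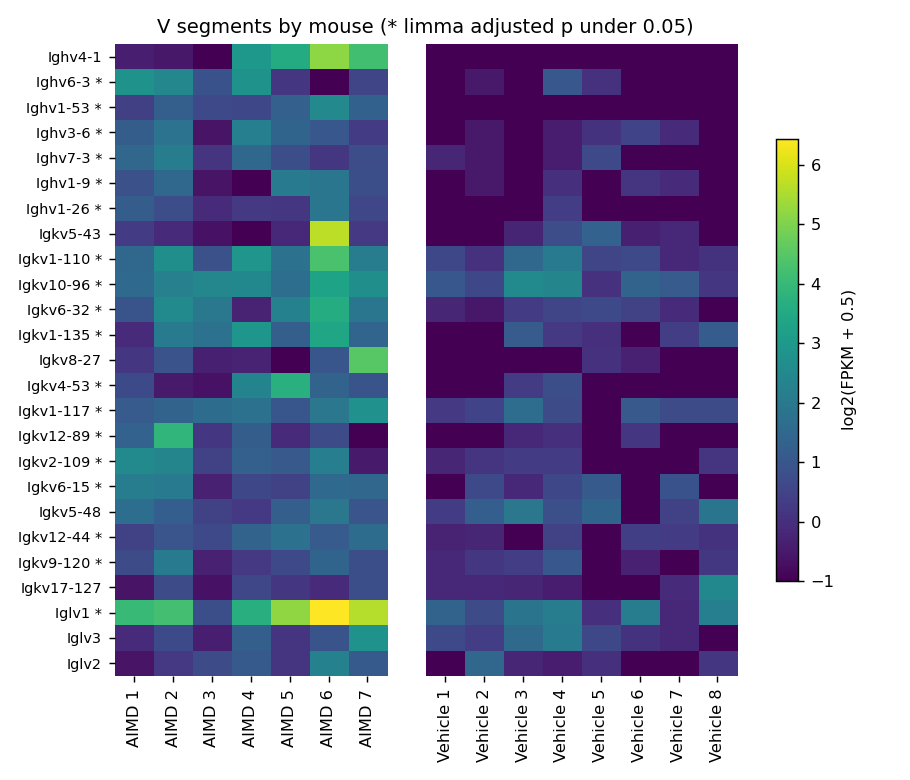
Log2(FPKM + 0.5) of the named V segments (vertical axis, ordered by locus and then by AIMD mean) in each mouse (horizontal axis), with brighter colors for higher values. The 18 segments marked with an asterisk had a limma adjusted p under 0.05, and Ighv1-53 and Ighv4-1 are at 0 FPKM in all 8 vehicle mice.

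Constant regions, which follow the V segment in the same transcripts, were tested in the same fit. Of 11 tested, limma called 2 lower and 0 higher in AIMD mice, where 16.6% and 19.4% of all tested genes were. Igkc, the kappa constant region, was at 398 ± 156 (SD, n = 7) and 338 ± 88.5 FPKM (SD, n = 8). The log2 fold change was 0.18 (SE 0.23, adjusted p = 0.58 by limma). Igha, the constant region of IgA, was at 72.6 ± 28.7 and 58.3 ± 22.2 FPKM (log2 fold change 0.30, SE 0.26, adjusted p = 0.382 by limma). Ighg2b, of IgG2b, fell by 1.02 on the log2 scale (SE 0.30, adjusted p = 0.0132 by limma), as did Ighd, of IgD (SE 0.38, adjusted p = 0.0419 by limma), a call that was lost when any of 9 of the mice was left out. Ighm, of IgM, stood at 23.8 ± 12.9 and 33.7 ± 14.0 FPKM (limma adjusted p = 0.171).

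Iglc1, a lambda constant region that Iglv1 can be joined to, also spread widely among AIMD mice. Its FPKM in AIMD mice was 5.68, 109 and 409 (lowest, median and highest) and in vehicle mice 10.2, 33.4 and 84.3, with AIMD mouse 3 lowest of all. Its log2 fold change was 1.40 (SE 0.76, adjusted p = 0.16 by limma), and without AIMD mouse 3 it was 2.03 (limma adjusted p = 0.0165). Iglc2 and Iglc3 stood at -0.94 and -0.33 on the log2 scale (limma adjusted p = 0.0695 and 0.55), and AIMD mouse 2 had 126 FPKM of Iglc3. Of the 50-base windows of Iglc3, 10.7% also occurred in another gene's transcript, mostly that of Iglc2.

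Counted against constant regions of the same locus, V reads were also higher in AIMD mice. For the heavy chain the lowest, median and highest V reads per 100 constant region reads were 2.65, 5.58 and 6.84 in AIMD mice and 0.275, 0.789 and 1.60 in vehicle mice. Igkv reads per 100 Igkc reads were 10.1, 14.8 and 24.3 in AIMD mice and 2.96, 5.47 and 9.86 in vehicle mice. The groups overlapped in neither. For lambda the values were 4.48, 9.97 and 16.9 in AIMD mice and 0.350, 2.52 and 5.20 in vehicle mice, with AIMD mouse 3 overlapping. Over the loci together the mean was 9.78 ± 2.61 (SD, n = 7) and 2.65 ± 0.892 (SD, n = 8), with no overlap on either side of the clock score.

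J segments, which lie between V segment and constant region, had more reads in AIMD mice as well. Ighj reads numbered 7 to 20 in AIMD mice and 0 to 4 in vehicle mice, and Igkj reads 28 to 73 and 4 to 23, without overlap. Iglj reads numbered 2 to 28 in AIMD mice and 0 to 5 in vehicle mice, with overlap. These counts are not scaled to the depth of the libraries. A like difference was seen at the T-cell receptor beta locus, whose V segments are used by T cells. Trbv reads per 100 reads of the Trbc constant regions were 1.72, 13.1 and 22.5 in AIMD mice and 0, 1.06 and 6.10 in vehicle mice, from 85 and 15 Trbv reads in all, with overlapping groups. Of 10 T-cell genes tested, 1 was lower (Lck, a kinase of T-cell receptor signalling) and 0 were higher by limma. Among all tested genes 16.6% were lower and 19.4% higher.

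**Figure D5:**
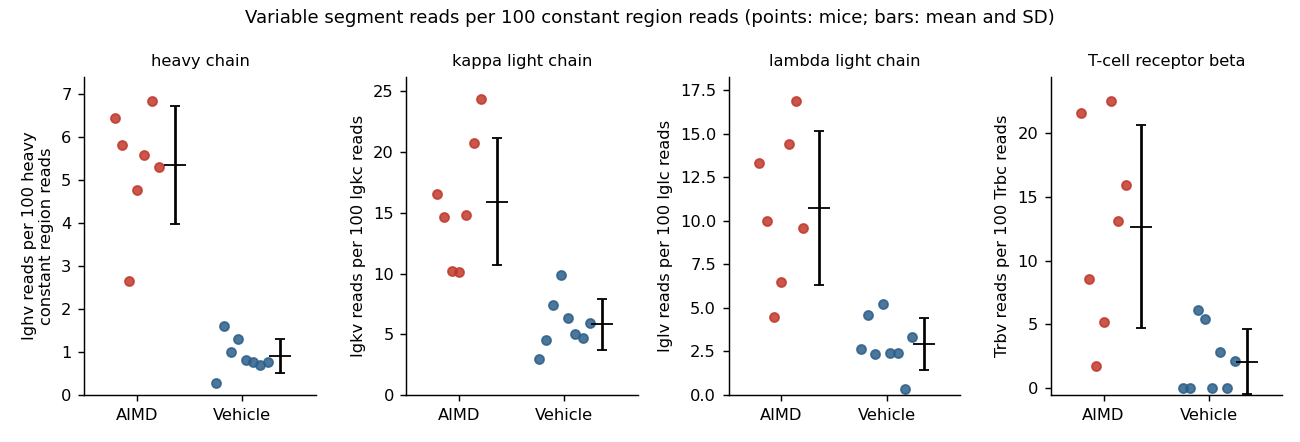
V reads per 100 constant region reads of the same locus in each mouse (points) for heavy, kappa and lambda chains and for T-cell receptor beta, with the mean and SD of 7 AIMD and 8 vehicle mice (black). The groups do not overlap for heavy and kappa chains, and they overlap for lambda and for T-cell receptor beta.

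Other measures of the libraries also differed between the groups, and whether they went with these ratios over mice was not tested. V segments lie at the 5′ end of the antibody transcript, far from the poly-A tail by which the RNA was selected. The mitochondrial share of reads, given above, was lower in AIMD mice. The median log2 fold change of tested genes rose with gene length, from -0.15 in the fifth with the shortest exon length (38 to 1797 bases) to 0.07 in the fifth with the longest (6259 to 41324 bases). The part of these differences in the V segment values was not tested.

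Genes of plasma cells moved in both directions. Of 11 tested, limma called 2 higher, Sdc1 (syndecan-1) and Xbp1 (a factor of the unfolded protein response), both also expressed by epithelium, and 2 lower, Mzb1 and Fkbp11, which serve folding in the endoplasmic reticulum. Jchain, the joining chain of secreted IgA and IgM, was at 131 ± 71.3 (SD, n = 7) and 113 ± 78.3 FPKM (SD, n = 8). The log2 fold change was 0.34 (SE 0.42, adjusted p = 0.558 by limma). The median log2 fold change of the list was -0.12. Beside the counts of this list, limma called 19.4% of all tested genes higher and 16.6% lower.

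No B-cell gene was called higher. Of 13 tested, limma called 0 higher and 5 lower (10 by voom), among them Cd79b, Blk, Fcrla and Cd37, and the list's summed FPKM was 11.3 to 79.0 in AIMD mice and 41.2 to 110 in vehicle mice. For this and the following lists, limma called 19.4% of all tested genes higher and 16.6% lower. The exact rank-sum test called 14.8% lower and voom 17.5%. Cd79b, a chain of the B-cell receptor complex, fell by 1.39 on the log2 scale (SE 0.33, adjusted p = 0.00384 by limma). With 1 mouse left out, the limma adjusted p reached 0.111 for Fcrla and 0.0566 for Cd37. The count of higher genes among constant regions, T-cell genes and B-cell genes was also 0 at an unadjusted limma p under 0.05, by the exact rank-sum test and by voom. Of 7 germinal centre genes, 4 were lower (S1pr2, Gcsam, Fas and Ung) and 1 was higher (Rgs13) by limma, and the exact rank-sum test called 2 lower. With 1 mouse left out, the limma adjusted p reached 0.0811 for Gcsam and 0.0897 for Fas. Vpreb1 and Vpreb3, of the family of the surrogate light chain of B-cell precursors, were both lower, Vpreb1 with an adjusted p by limma of up to 0.0517 when 1 mouse was left out. Rag1, Rag2 and Dntt, which carry out V segment recombination, were below the filter and not tested. Of 7 genes of IgA transport and recruitment, the cytokine genes Tnfsf13 (APRIL) and Tnfsf13b (BAFF) were higher, and Pigr, the receptor that carries IgA into the lumen, and Madcam1, a vessel address for lymphocytes, were lower. The limma adjusted p of Pigr reached 0.0994 with 1 mouse left out.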

How the data were processed

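Poly-A selected, stranded libraries of cecal RNA from 7 AIMD and 8 vehicle mice were sequenced with 50-base single reads. The authors mapped reads to GRCm38 with STAR, counted reads per gene of the GENCODE annotation with featureCounts, and deposited the values of each mouse as FPKM. How counts became FPKM, and tool versions, are not given in the sources used here. DESeq2, which the authors ran on counts with time of sacrifice as a factor, was not used, since the labels do not give that time. The table held 45808 genes, of which 4 with a repeated symbol were left out.

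All 24279 genes above 0 gave whole reads (within 0.001 of a read), 16231 of them by exon length in GENCODE M21 and 8048 by another length. Of the 189 V segments, 186 did so by exon length. Recovered reads gave depths and V reads. After division by a median-of-ratios size factor, log2(FPKM + 0.5) was tested for genes that reached 0.5 FPKM in 7 or more mice, with lmFit and eBayes with trend in limma 3.58.1 (R 4.3.3), two-sided, with Benjamini–Hochberg adjustment over all genes tested and a threshold of 0.05. The size factor was 1.01 in every mouse, so the deposited FPKM were already on a common scale of this kind and the division changed no comparison. Sums, numbers and evenness over V segments are described without a test, since they are taken over members. Thinned numbers are expectations over draws of reads without replacement. The rest was done in Python 3.11.15 (scipy 1.17.1, pandas 2.3.3, matplotlib 3.10.9, numpy 2.4.6), and methods were tested on simulated data.

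Samples were grouped by the labels, which name the mice by replicate number. Members, gene lists and comparisons were chosen with earlier results of these data known. The segments named are those called, the 10 highest by mean FPKM, the top segment of each mouse and all lambda segments. Ighv14 is named for its lack of reads in vehicle mice, after its values were seen. The other families are named by their size or their lack of a difference, also after their values were seen. Lists cover antibody constant regions, plasma cells, B cells, germinal centre, recombination, IgA transport, lymphoid follicle, T cells, epithelium, smooth muscle and macrophages. Alternatives were other pseudocounts, filters, scalings and evenness measures, an exact rank-sum test, limma voom on reads, a clock-gene covariate, a replicate block and leaving out single mice. The unbiased Simpson measure, V reads over constant region reads and a constant region covariate were added after the data were seen. So were the number of segments detected without AIMD mouse 3 and vehicle mouse 1, and V families and fold bounds without single mice.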

Additional observations from a re-analysis of the deposited data

Results flagged for a closer look

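Values were looked at in which 1 mouse stood apart from the others of its group by a Dixon gap test. With normally distributed values, chance passes it in about 1 in 20 groups. Of 98 groups of values 19 passed, each at the high end. Many FPKM were near 0, and some segments were named as the top segment of a mouse. The 19 of 98 can therefore not be set against that rate. Among AIMD mice, mouse 6 stood apart for Igkv5-43 (51.2 FPKM, next highest 0.755), Igkv1-110 (19.4, next 6.89), Ighv1-53 (5.20, next 1.98), Iglv2 (4.37, next 1.66) and the IgE constant region Ighe (0.223, next 0.0545). AIMD mouse 7 stood apart for Igkv8-27 (22.2 FPKM, next 1.48), Iglv3 (6.61, next 1.89) and Igkv1-117 (6.23, next 3.39). AIMD mouse 2 did so for Igkv12-89 (14.3 FPKM, next 2.03) and the lambda constant region Iglc3 (126 FPKM), and AIMD mouse 5 for Igkv4-53 (12.6 FPKM, next 4.58).

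Among vehicle mice, mouse 8 stood apart for Igkv17-127 (5.09 FPKM, next 0.425) and mouse 2 for Iglv2 (2.22, next 0.624). Mouse 4 did so for Ighv6-3 (1.51 FPKM) and for Ighv1-26 (0.768, all others at 0), and mouse 5 for Ighv7-3 (1.07 FPKM). Mouse 3 stood apart for the constant regions Ighg1 (11.4 FPKM), Ighg3 (19.7) and Iglc4 (0.430, all others at 0). The low values among these rest on few reads, such as 3 reads for Ighv1-26.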

How the results depend on the processing

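When single mice were left out, the log2 difference of summed V segment FPKM ranged from 1.74 to 2.23, the difference in segments detected from 50 to 57.8, that in evenness from -0.138 to -0.105, V segments called from 16 to 20 and constant regions called from 1 to 3, against 2 with all mice. The difference in segments detected moved to 27.2 for FPKM of at least 0.5, to 22.8 for at least 1, to 36.4 after thinning libraries and to -3.06 after thinning V reads, where overlap and fewer reads go with the turned sign. In place of evenness, the effective number differed by 5.52, inverse Simpson by -6.22 and the inverse of its unbiased form by -17.2. The effective number cannot exceed the number of segments detected, which depended on V reads. With FPKM of at least 1 in 7 mice, 11 V segments were tested and 7 were called higher, where 20.3% of tested genes were, and 7 mice is again the size of the AIMD group. Constant regions called were 1 without a filter, 1 by the exact rank-sum test and 4 with the constant region covariate, and the cause was not tested. The exact rank-sum test and voom each called 12 V segments. Of the 18 called V segments, 11 kept their call wherever they were tested over the 27 settings run. Igkv9-120 lost its call in 15 settings and Igkv6-15 in 13. Segments that the filter of 1 FPKM left out were not counted as lost there.

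Replicate numbers name different mice, and same-numbered mice did not deviate together (correlations of -0.35 to 0.432 over 7 pairs, with 1 AIMD mouse closest to its own number). With a replicate block, the log2 difference of the sum was 2.04, that in segments detected 51.9 and that in evenness -0.126, with 19 V segments and 3 constant regions called. Depth limits low segments, since vehicle mice held 49 to 258 V reads each.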

Other observations

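Other cell types of the cecum were measured in the same libraries, in which limma called 19.4% of all tested genes higher and 16.6% lower. Of 5 macrophage genes tested, limma called 3 higher in AIMD mice, Cd68, Csf1r and Lyz2, and 0 lower (also 0 at an unadjusted p under 0.05, by the exact rank-sum test and by voom), and the list's summed FPKM was 63.2 to 220 in AIMD mice and 44.5 to 67.8 in vehicle mice. Of 8 genes of lymphoid follicles, Lta (up to an adjusted p of 0.111 with 1 mouse left out) and Madcam1 were lower and none was higher by limma, with summed FPKM of 14.1 to 66.0 and 17.9 to 49. Of 6 epithelial genes, Krt8 (up to an adjusted p of 0.0968 with 1 mouse left out) and Vil1 were higher and Krt18 was lower, and of 5 smooth muscle genes, Tagln was lower, with summed FPKM of 156 to 588 in AIMD mice and 400 to 2201 in vehicle mice. Their part in the V segment values was not tested.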
